A study of Homo sapiens with 5 samples.

Results

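The genes described here are 29 members of cholesterol and fatty acid synthesis, chosen by name from the pathway, out of 33538 genes in the deposited matrix, and all 29 were measured. They comprise 18 enzymes of the sterol branch, 7 enzymes of the fatty acid branch and 4 regulators or sterol carriers. MDA-MB-468 is an established human line of triple-negative breast cancer, and its cells were profiled as single cells to ask which genes differ when FOSL1, the gene of the AP-1 subunit FRA-1, is raised. HA FOSL1 cells were compared with HA control cells. The VPR FOSL1 gRNA2 and VPR FOSL1 gRNA3 samples were each set against the VPR control. The labels do not spell out HA or VPR; in common use HA is an epitope tag and VPR a fused activator that a guide RNA directs to a gene's start. Each of the 5 samples was marked by its own hashtag antibody before pooling into 1 library. The hashtags of the HA samples carry the prefix GOF in the deposited table and were matched to the HA titles by elimination, since no other titles lie outside VPR. Whether 5-fluorouracil, named in the protocols, was given to any of these cells is not stated, nor whether a sample was 1 clone. Each group held 1 sample, so a difference between a pair of samples has no replicate check.

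After filtering, 1826 to 4299 cells and 42058533 to 85556699 UMIs (unique transcript tags) remained per sample, and no barcode was shared between samples. FOSL1 itself stood at 63.5 CPM (a gene's UMIs relative to a sample's total, put on 1 common scale) in HA FOSL1 cells, against 8.96 CPM in the HA control. It stood at 100.5 CPM with gRNA2 and 94.3 CPM with gRNA3, against 8.91 CPM in the VPR control. The epithelial and basal-like markers EPCAM, KRT8, KRT18, KRT7 and EGFR lay at 343 CPM or more in every sample, PGR was at 0, and ESR1 reached at most 4.87 CPM and ERBB2 13.5 CPM. Among 9 markers of immune, stromal, endothelial and fat cells, DCN and ADIPOQ were at 0 in all samples and the highest value was 4.30 CPM, for COL1A1. Cells of the FOSL1 samples were deeper, at 20768 UMIs per cell (median) for HA FOSL1 against 15402 for the HA control, and 17414 for gRNA2 and 18121 for gRNA3 against 15810 for the VPR control. The share of cells scored as G1 was 28.8% in HA FOSL1 against 29.7% in the HA control, and 28.1% with gRNA2 and 28.8% with gRNA3 against 29.8% in the VPR control.

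Cholesterol and fatty acids are both built from acetyl-CoA in the cytosol. The sterol branch runs through mevalonate and squalene to a ring that is trimmed to cholesterol, and the fatty acid branch makes palmitate, which is then elongated and desaturated. Both are driven by the SREBP transcription factors, the products of SREBF1, known above all for fatty acid genes, and SREBF2, known above all for sterol genes. When sterols are plentiful, INSIG proteins hold these factors in the endoplasmic reticulum. Dividing tumour cells use this synthesis to build membranes.

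Of the 16 sterol enzymes that averaged 20 CPM or more, 0 were 1.5-fold apart from their control in any arm. Among all genes at that level, 5.97% were 1.5-fold higher and 2.19% lower in HA. With gRNA2 0.921% were higher and 0.591% lower, and with gRNA3 0.958% and 0.836%. Such changes were thus rare among all genes, and a count of 0 of 16 does not set the sterol branch apart. SREBF1 and the desaturase gene SCD were lower in all 3 FOSL1 samples and were the only members that passed the edgeR test across the samples. At 20 CPM or more, FASN, INSIG1, ACLY and the sterol enzyme PMVK also lay below the control in each arm without passing. Lying on 1 side is common here: of 5747 genes averaging 20 CPM or more, 30.1% were below their control in every arm, against 6 of the 23 members at that level. By branch these were 1 of 16 sterol enzymes, 3 of 4 fatty acid enzymes and 2 of 3 regulators. Above their control in every arm were 8 of 16, 1 of 4 and 0 of 3, beside 33.3% of the 5747 genes. All FOSL1 samples were above both controls for 28.3% of those genes and below both for 22.5%, against 6 and 6 of the 23 members, so such a position by itself does not set a member apart. ELOVL6 was higher by 2.50 on the log2 scale in HA FOSL1 cells, and its intervals with both guides held 0. The gRNA2 and gRNA3 arms share the VPR control, so their ratios are not independent of each other.

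**Figure D1:**
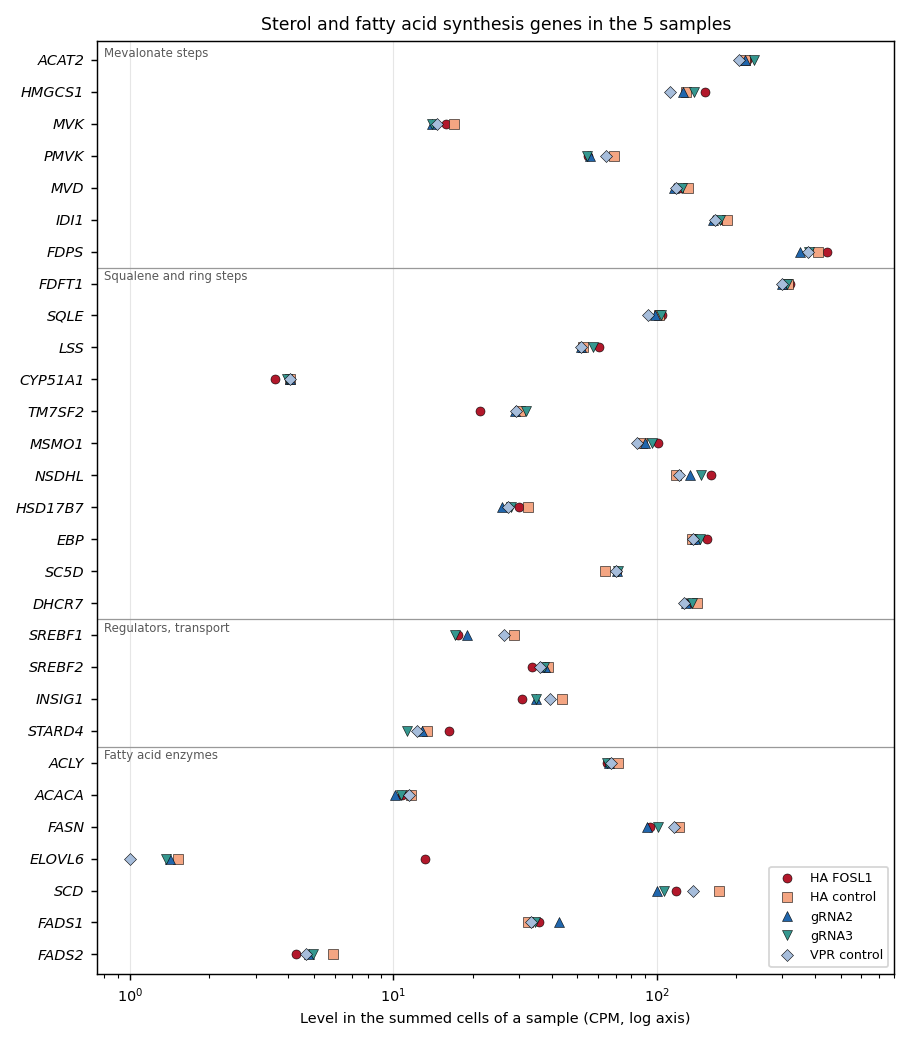
Level of each of the 29 genes (rows, grouped by role) in the 5 samples, as CPM in the summed cells on a log axis. Each point is 1 sample; the points of most sterol enzymes nearly coincide, SREBF1 and SCD have both controls to the right of the FOSL1 samples, and ELOVL6 has HA FOSL1 alone at 13.2 CPM.

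Among the mevalonate steps, HMGCS1, which makes HMG-CoA, was the member highest relative to control. It had 152 CPM in HA FOSL1 cells against 129 CPM in the HA control, and 126 CPM with gRNA2 and 139 CPM with gRNA3 against 112 CPM in the VPR control. All 3 FOSL1 samples thus lay above their own control, but gRNA2 lay below the HA control. The log2 ratios of CPM + 1 were 0.23 (95% interval of counting error 0.19 to 0.28), 0.16 (0.11 to 0.22) and 0.31 (0.26 to 0.35) in the HA, gRNA2 and gRNA3 arms.

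PMVK, the kinase that acts after mevalonate kinase, lay on the other side of its controls. Its level was 54.9 CPM in HA FOSL1 against 69.1 CPM in the HA control, and 56.0 CPM with gRNA2 and 54.5 CPM with gRNA3 against 64.2 CPM in the VPR control. Every FOSL1 sample was below both controls. ACAT2, the cytosolic thiolase that opens the pathway, stood at 221 CPM in HA FOSL1 against 217 CPM in the HA control, and at 218 CPM and 234 CPM with gRNA2 and gRNA3 against 206 CPM in the VPR control. MVK, the mevalonate kinase, had 15.9 CPM in HA FOSL1 against 17.1 CPM in the HA control, and 14.0 CPM with either guide against 14.7 CPM in the VPR control, with counting intervals that held 0 in each arm. The remaining steps, MVD, IDI1 and FDPS, which make the isoprenoid units and join them to farnesyl diphosphate, had log2 ratios between -0.10 and 0.12 in all arms.

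In the squalene and ring steps, NSDHL was highest relative to control. This enzyme takes part in removing methyl groups from the sterol ring, and it had 161 CPM in HA FOSL1 against 118 CPM in the HA control. With gRNA2 and gRNA3 it had 134 CPM and 147 CPM against 122 CPM in the VPR control. The groups did not overlap, and the log2 ratios were 0.44 (0.40 to 0.49), 0.13 (0.08 to 0.18) and 0.27 (0.22 to 0.31) in the HA, gRNA2 and gRNA3 arms. MSMO1, which oxidises the same methyl groups, stood at 101 CPM in HA FOSL1 against 87.8 CPM in the HA control, and at 90.7 CPM and 96.1 CPM with the guides against 84.3 CPM in the VPR control. These FOSL1 values were again above both controls.

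TM7SF2, a sterol reductase of the ring steps, was apart in HA FOSL1 only. It had 21.3 CPM there against 30.2 CPM in the HA control (log2 -0.49, -0.60 to -0.37), and 29.1 CPM with gRNA2 and 31.9 CPM with gRNA3 against 29.1 CPM in the VPR control. A single sample therefore lay low, and the other 4 lay within 29.1 to 31.9 CPM. The gene lies on chromosome 11, 776 kb from FOSL1 in the RefSeq annotation of GRCh38.p14, the nearest of the 5 members on that chromosome; DHCR7, FADS1, FADS2 and SC5D lie 4025 kb or more away. With gRNA3 the log2 ratio of TM7SF2 was 0.13 (0.04 to 0.22), and with gRNA2 the interval ran from -0.11 to 0.10.

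CYP51A1, which removes a methyl group from lanosterol, was measured at only 3.54 CPM in HA FOSL1 against 4.05 CPM in the HA control, and at 4.06 CPM and 3.94 CPM with gRNA2 and gRNA3 against 4.06 CPM in the VPR control. All 5 values were close together and no arm's interval excluded 0. The other ring members, FDFT1 (squalene synthase), SQLE (squalene epoxidase), LSS (which closes the ring), HSD17B7, EBP, SC5D and DHCR7 (which makes cholesterol in the last step), had log2 ratios between -0.11 and 0.20. SQLE, at 105 CPM in HA FOSL1 against 102 CPM in the HA control and at 98.8 CPM and 104 CPM with the guides against 92.9 CPM in the VPR control, had ratios of 0.04, 0.09 and 0.16. FDPS and HSD17B7 have sequence copies elsewhere in the genome, so their counts are less certain.

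Central values over the 18 sterol enzymes were small. Their median log2 ratio stood at 0.03 for HA, -0.00074 for gRNA2 and 0.08 for gRNA3, and that of all genes averaging 20 CPM or more stood at 0.0042, 0.0089 and 0.0019 for the same arms. Of the 16 enzymes at that level, 10 lay above the control in HA, where 50.8% of genes did. With gRNA2 9 lay above, where 53.9% of genes did, and with gRNA3 15, where 50.7% did. The controls were farther apart than these medians. The VPR control lay below the HA control in 13 of the 16, where 38.5% of genes did, with a median over the 18 of -0.09 against 0.02 over all genes. The guides also differed, since 15 of 16 were higher with gRNA3 than with gRNA2, where 44.9% of genes were.

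**Figure D2:**
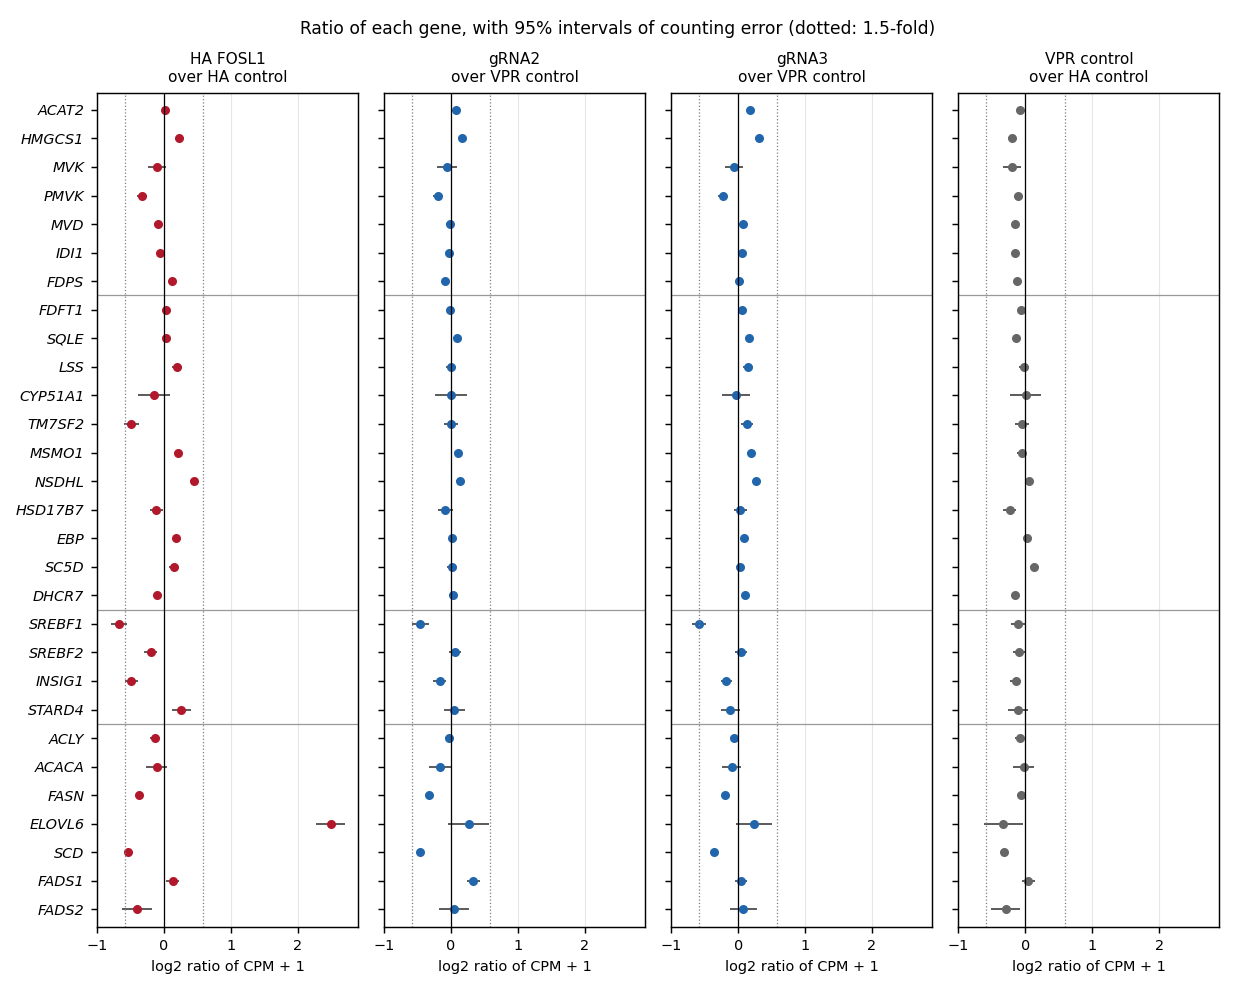
Log2 ratio of CPM + 1 for each gene (rows) in the 3 arms and between the controls, with lines for 95% intervals of counting error and dotted lines at 1.5-fold. SREBF1, INSIG1, FASN and SCD lie left of 0 in every arm, as do MVK, PMVK, CYP51A1, ACLY and ACACA. ELOVL6 lies at 2.50 in the HA arm, and the right panel shows the distance between controls, with SCD at -0.32.

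SREBF1 was the regulator with the largest difference. It had 17.6 CPM in HA FOSL1 cells against 28.7 CPM in the HA control. With gRNA2 it had 19.0 CPM and with gRNA3 17.2 CPM, against 26.4 CPM in the VPR control. All FOSL1 samples were below both controls, with a gap from 19.0 to 26.4 CPM, and the log2 ratios were -0.67 (-0.79 to -0.55), -0.46 (-0.58 to -0.34) and -0.59 (-0.70 to -0.48) in the HA, gRNA2 and gRNA3 arms. Between the controls the ratio was -0.11.

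SREBF2, its sterol-side relative, had 33.6 CPM in HA FOSL1 against 38.7 CPM in the HA control, and 37.7 CPM with gRNA2 and 37.3 CPM with gRNA3 against 36.1 CPM in the VPR control. Here the values of the guides were within the span of the controls, and HA FOSL1 was the lowest of the 5. INSIG1, the retention factor that is itself a target of the SREBPs, had 30.9 CPM in HA FOSL1 against 43.7 CPM in the HA control, and 34.9 CPM and 34.7 CPM with gRNA2 and gRNA3 against 39.4 CPM in the VPR control. It was below both controls in each FOSL1 sample, by log2 -0.48 (-0.58 to -0.39), -0.17 (-0.26 to -0.07) and -0.18 (-0.26 to -0.09). For the guides this depended on the cells used, since in G1 cells alone the gRNA3 ratio was 0.012, and in thinned cells the ratios were -0.067 with gRNA2 and -0.071 with gRNA3. STARD4, a carrier of cholesterol in the cytosol, had 16.3 CPM in HA FOSL1 against 13.4 CPM in the HA control, and 12.8 CPM and 11.3 CPM with the guides against 12.3 CPM in the VPR control, so that its direction differed between arms.

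In the fatty acid branch the largest fall was that of SCD, the desaturase that turns saturated into monounsaturated fatty acids. Its level was 118 CPM in HA FOSL1 against 172 CPM in the HA control. It was 100.1 CPM with gRNA2 and 107 CPM with gRNA3, against 138 CPM in the VPR control. The FOSL1 samples did not overlap the controls, and the log2 ratios were -0.54 (-0.59 to -0.49), -0.46 (-0.51 to -0.40) and -0.37 (-0.41 to -0.32). The controls themselves were 0.32 apart (log2 -0.32, VPR control over HA control), so the size depends on the control used. Against the control of the other system the ratios were -0.22 for HA FOSL1, -0.78 for gRNA2 and -0.69 for gRNA3.

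FASN, the synthase that builds palmitate, had 94.2 CPM in HA FOSL1 against 122 CPM in the HA control, and 92.3 CPM with gRNA2 and 102 CPM with gRNA3 against 116 CPM in the VPR control. The FOSL1 samples were again below both controls, by log2 -0.37 (-0.42 to -0.31), -0.33 (-0.38 to -0.27) and -0.19 (-0.24 to -0.14). The enzymes that feed it lay closer to their controls. ACLY, which yields cytosolic acetyl-CoA from citrate, and ACACA, which carboxylates it, had ratios between -0.16 and -0.03, with intervals that held 0 except for ACLY in the HA arm.

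FADS1 and FADS2, neighbouring desaturases of polyunsaturated fatty acids, did not follow the pattern of SCD. FADS1 had 35.8 CPM in HA FOSL1 against 32.5 CPM in the HA control, and 42.5 CPM with gRNA2 and 34.4 CPM with gRNA3 against 33.5 CPM in the VPR control, so that gRNA2 was the highest sample. The guides differed by -0.30 (gRNA3 over gRNA2, -0.38 to -0.22). FADS2 was low everywhere, with 4.26 CPM in HA FOSL1 against 5.93 CPM in the HA control, and 4.81 CPM and 4.94 CPM with the guides against 4.65 CPM in the VPR control. Its guide values lay between the controls.

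ELOVL6, which elongates saturated and monounsaturated fatty acids, was nearly absent from 4 samples. It had 13.2 CPM (557 UMIs) in HA FOSL1 against 1.53 CPM (87 UMIs) in the HA control, and 1.42 CPM (68 UMIs) with gRNA2 and 1.37 CPM (117 UMIs) with gRNA3 against 1.00 CPM (45 UMIs) in the VPR control. HA FOSL1 stood alone, at log2 2.50 (2.28 to 2.71), and the ratios with the guides, 0.27 (-0.04 to 0.57) and 0.24 (-0.04 to 0.50), had intervals that held 0. Empty droplets held ELOVL6 at 1.89 CPM, from only 4 UMIs (0.52 to 4.85 CPM). The gene lay below a mean of 20 CPM and so enters no count of fold changes here.

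**Figure D3:**
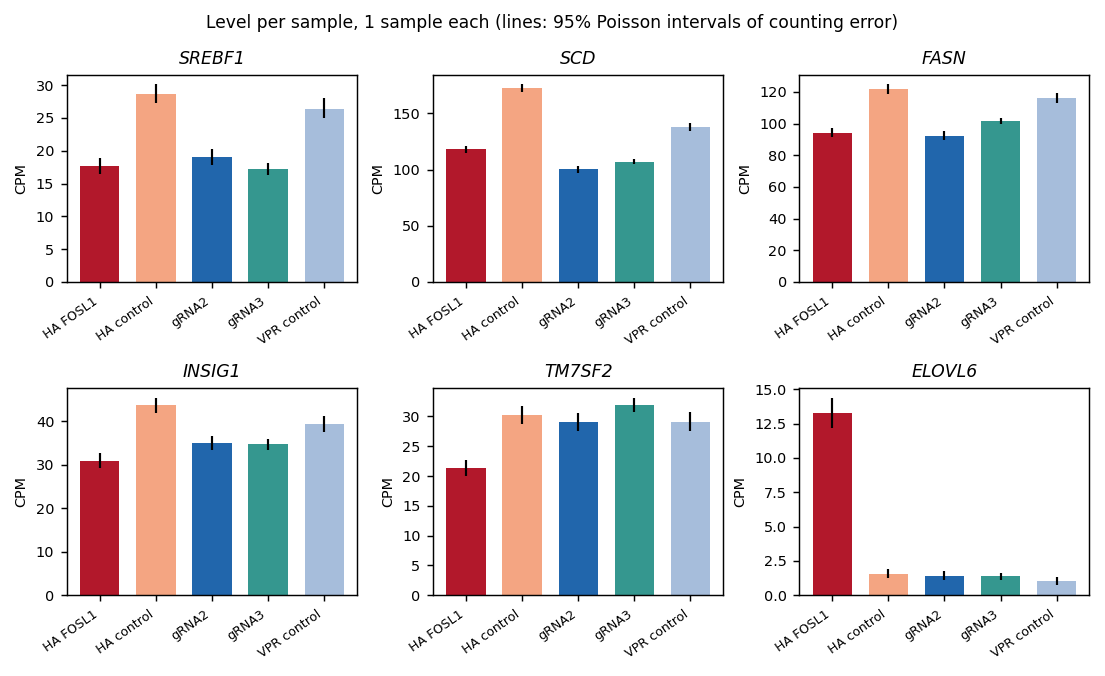
Level of 6 genes in the 5 samples (CPM, axes from 0; bars are single samples and lines 95% Poisson intervals of counting error). SREBF1, SCD, FASN and INSIG1 are lower in the HA FOSL1, gRNA2 and gRNA3 samples than in either control, TM7SF2 is low in HA FOSL1 only, and ELOVL6 is at 13.2 CPM in HA FOSL1 and at most 1.53 CPM elsewhere.

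For the 7 fatty acid enzymes the median log2 ratio stood at -0.14 (HA), -0.03 (gRNA2) and -0.06 (gRNA3), and over the 4 of them at 20 CPM or more (ACLY, FASN, SCD and FADS1) it stood at -0.25, -0.18 and -0.12. Summed UMIs of the 7, in which SCD and FASN carry the most, were 341 CPM in HA FOSL1 against 417 CPM in the HA control, and 317 CPM with gRNA2 and 324 CPM with gRNA3 against 372 CPM in the VPR control. The 3 FOSL1 sums lay below both controls. Summed sterol enzymes gave 2354 CPM in HA FOSL1 against 2245 CPM in the HA control, and 2118 CPM with gRNA2 and 2255 CPM with gRNA3 against 2107 CPM in the VPR control, so that these groups overlapped.

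Fold changes were counted for genes that averaged 20 CPM or more in the compared pair, a level that 23 members reached in each arm. In HA, SREBF1 alone was 1.5-fold lower and 0 members were 1.5-fold higher, where 2.19% of 5748 genes were lower and 5.97% higher. With gRNA2 the counts were 0 lower and 0 higher, where 0.591% of 5752 genes were lower and 0.921% higher. With gRNA3 SREBF1 alone was lower, close to the threshold at -0.59, and 0 were higher, where 0.836% of 5743 genes were lower and 0.958% higher. At the milder 1.2-fold, 1 member (NSDHL) was higher and 6 were lower in HA, beside 17.3% and 13.3% of genes. For gRNA2 these counts were 1 and 3, beside 4.07% and 3.30% of genes, and for gRNA3 2 and 2, beside 4.41% and 4.48%.

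To test a shared difference, summed counts of the 5 samples were fitted with edgeR, the system (HA or VPR) as covariate and the 3 FOSL1 samples as repeats of 1 effect. Of 15439 genes, 0.900% rose and 0.706% fell, 1.61% in all, at an adjusted p under 0.05. Among the 29 members 0 rose and 2 fell. SREBF1 fell by 0.59 on the log2 scale (SE 0.07, edgeR quasi-likelihood test with Benjamini-Hochberg adjustment, adjusted p = 0.041, lower in 3 of 3 arms, as 30.1% of genes were). SCD fell by 0.45 (SE 0.06, edgeR adjusted p = 0.043, lower in 3 of 3 arms). Without gRNA2 the estimates were -0.63 for SREBF1 and -0.42 for SCD, and edgeR's adjusted p was 0.14 and 0.15. Without gRNA3 they were -0.56 and -0.48, with an adjusted p of 0.19 and 0.16. In these fits edgeR called 0 of all genes (2614 and 2371 at an unadjusted p under 0.05). Without HA FOSL1 the estimates were -0.53 for SREBF1 and -0.39 for SCD. That fit set the guides against the VPR control alone. Its spread came only from gRNA2 against gRNA3, so no adjusted p is given for it.

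Other members did not pass with edgeR. FASN was at -0.28 (adjusted p = 0.085), INSIG1 at -0.29 (adjusted p = 0.12), PMVK at -0.24 (adjusted p = 0.079), NSDHL at 0.33 (adjusted p = 0.10) and HMGCS1 at 0.26 (adjusted p = 0.092). DESeq2, run as an alternative on the same model, called 5 members, SREBF1, SCD and FASN lower and NSDHL and HMGCS1 higher, and 4.73% of all genes. At an unadjusted p under 0.05 edgeR had 4 members higher and 5 lower, 31.0% of them, where 26.0% of all genes were. ELOVL6, at 1.95 with an SE of 0.62 (edgeR adjusted p = 0.14), had the widest error of the members. Without HA FOSL1 the estimate was 0.48 for ELOVL6 and -0.16 for INSIG1.

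**Figure D4:**
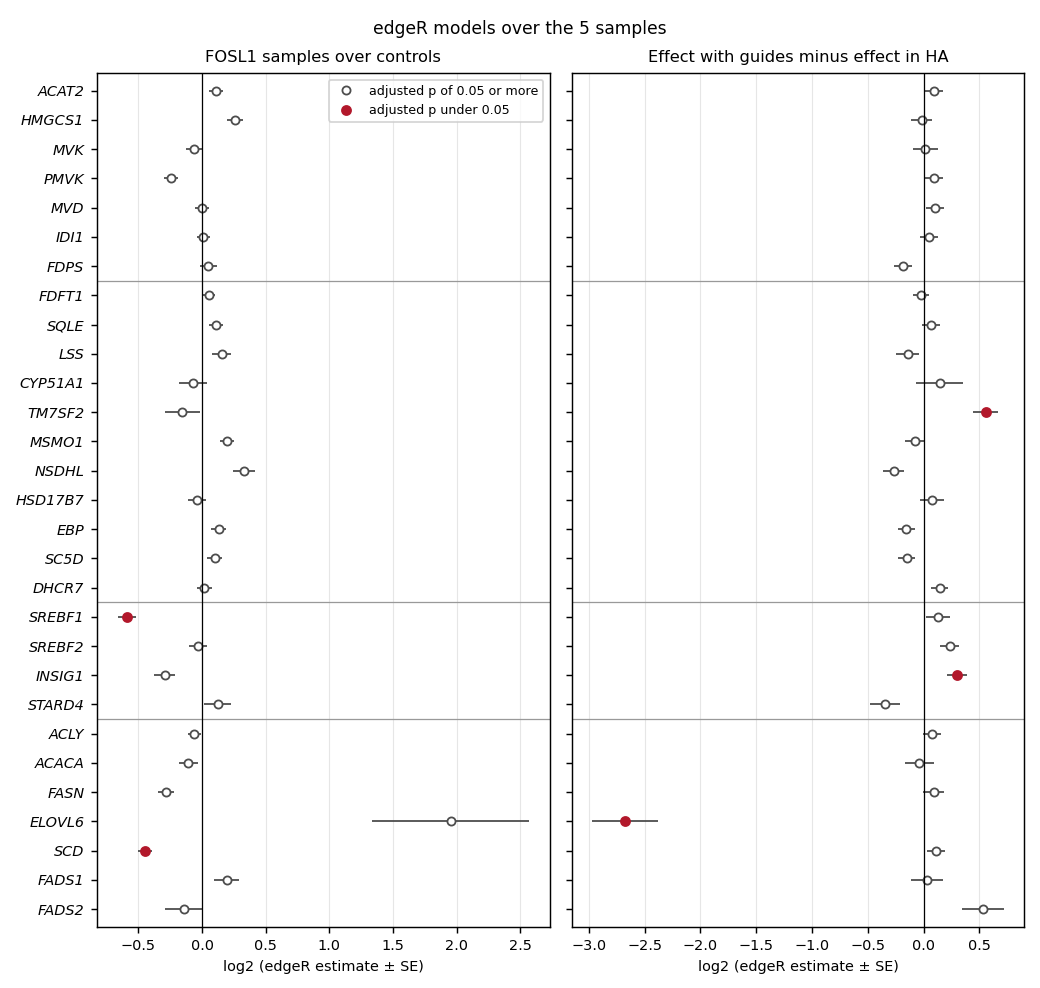
edgeR estimates for each gene with SE bars, filled where the adjusted p is under 0.05. Left, FOSL1 samples over controls, where SREBF1 at -0.59 and SCD at -0.45 are filled; right, the effect with the guides minus the effect in HA, where TM7SF2 at 0.56, INSIG1 at 0.30 and ELOVL6 at -2.67 are filled.

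Whether the HA arm differed from the guides was tested with the interaction of system and FOSL1 state, which leaves 1 residual degree of freedom. That degree comes from gRNA2 against gRNA3 alone, and the HA samples, 1 of each kind, are assumed to vary like the guides. A positive value means a higher effect with the guides. edgeR called 12.2% of 16071 genes by this term and 3 of the 29 members, a share near that of all genes. These were ELOVL6 (-2.67, SE 0.30, adjusted p = 0.00015), TM7SF2 (0.56, SE 0.11, adjusted p = 0.0069) and INSIG1 (0.30, SE 0.09, adjusted p = 0.045). DESeq2 called ELOVL6 alone among the members, and 1.90% of all genes. For SREBF1 and SCD the term was 0.13 and 0.11, and its edgeR adjusted p was 0.51 and 0.44, which does not show that the arms are equal.

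Another 40 genes of the pathway (uptake, transport, sensing, other elongases, desaturases and fatty acyl-CoA ligases) gave the surroundings of these members. Of the 27 that averaged 20 CPM or more in HA, 3 were 1.5-fold higher and 0 lower, beside the 5.97% and 2.19% of all genes given above. With gRNA2 0 of 26 and with gRNA3 0 of 27 were that far apart. The 3 were FADS3, a paralogue of the FADS desaturases, ACSL4, which activates long polyunsaturated fatty acids, and ME1, the malic enzyme that supplies NADPH. FADS3 had 42.1 CPM in HA FOSL1 against 17.6 CPM in the HA control, and 26.6 CPM and 25.5 CPM with gRNA2 and gRNA3 against 20.1 CPM in the VPR control. ACSL4 had 31.9 CPM in HA FOSL1 against 17.9 CPM in the HA control, and 23.2 CPM and 24.7 CPM with gRNA2 and gRNA3 against 18.5 CPM in the VPR control. ME1 had 56.7 CPM in HA FOSL1 against 26.8 CPM in the HA control, and 33.2 CPM and 34.7 CPM with the guides against 33.0 CPM in the VPR control. All 3 were thus highest in HA FOSL1 and above both controls with the guides too. For ME1 the guides lay close to the VPR control, with counting intervals that held 0. Of the 27 neighbours averaging 20 CPM or more over the 5 samples, 10 (37.0%) had every FOSL1 sample above both controls, beside 28.3% of all genes. Fitted over all 5 samples, edgeR passed 0 of the 40 genes, although 15 (37.5%) had an unadjusted p under 0.05 (8 of them higher), beside the 26.0% of all genes. DESeq2 passed 3 of the 40 (7.50%), beside its 4.73% of all genes.

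Within cells, each cell was thinned to 5000 UMIs so that depth was equal, which left out 5 to 13 cells per sample. A UMI of SCD was then found in 42.6% of HA FOSL1 cells (95% exact binomial interval 40.3% to 44.9%) against 56.2% of HA control cells (54.5% to 57.9%). It was found in 38.1% with gRNA2 (36.2% to 40.1%) and 39.8% with gRNA3 (38.4% to 41.3%) against 48.7% of VPR control cells (46.8% to 50.7%). Without thinning these shares were 83.4% in HA FOSL1 against 88.8% in the HA control, and 78.5% and 80.9% with gRNA2 and gRNA3 against 83.9% in the VPR control. In counts this sparse the share of cells with a tag falls with the mean, so for SCD it restates the lower sum. For SREBF1 the thinned shares were 7.98% in HA FOSL1 (6.77% to 9.32%) against 12.0% in the HA control (10.9% to 13.1%), and 8.63% (7.57% to 9.79%) and 7.97% (7.18% to 8.83%) with gRNA2 and gRNA3 against 12.8% in the VPR control (11.5% to 14.1%). Unthinned, they were 31.1% in HA FOSL1 against 35.9% in the HA control, and 29.6% and 27.7% with gRNA2 and gRNA3 against 35.4% in the VPR control. ELOVL6 was found in 5.39% of thinned HA FOSL1 cells (4.40% to 6.53%) against 0.594% in the HA control (0.363% to 0.916%), and in 0.670% and 0.420% with gRNA2 and gRNA3 against 0.464% in the VPR control. Unthinned, these were 18.3% in HA FOSL1 against 2.13% in the HA control, and 2.12% and 2.28% with gRNA2 and gRNA3 against 1.62% in the VPR control, and no cell held more than 8 ELOVL6 UMIs. No cell type that should lack these genes is in the pool, so free RNA was judged from empty droplets alone.

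Of the 5000 UMIs, the 18 sterol enzymes took a median of 11 UMIs in HA FOSL1 against 11 in the HA control, and 10 with gRNA2 and 11 with gRNA3 against 10 in the VPR control. The fatty acid enzymes took a median of 1 in HA FOSL1 against 2 in the HA control, and 1 with either guide against 2 in the VPR control. Cells with no fatty acid enzyme UMI made up 21.5% in HA FOSL1 against 14.3% in the HA control, and 22.2% and 22.9% with gRNA2 and gRNA3 against 17.3% in the VPR control. Spread between cells was widest for the sterol sum in HA FOSL1, where its variance was 2.33 times the mean, against 1.97 times in the HA control, and 1.81 and 1.90 times with gRNA2 and gRNA3 against 1.65 times in the VPR control. Across cells of a sample the sterol and fatty acid sums had a Spearman rho of 0.24 in HA FOSL1 against 0.13 in the HA control, and of 0.15 and 0.14 with the guides against 0.14 in the VPR control. These are weak correlations in sparse counts and are given as a description.

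**Figure D5:**
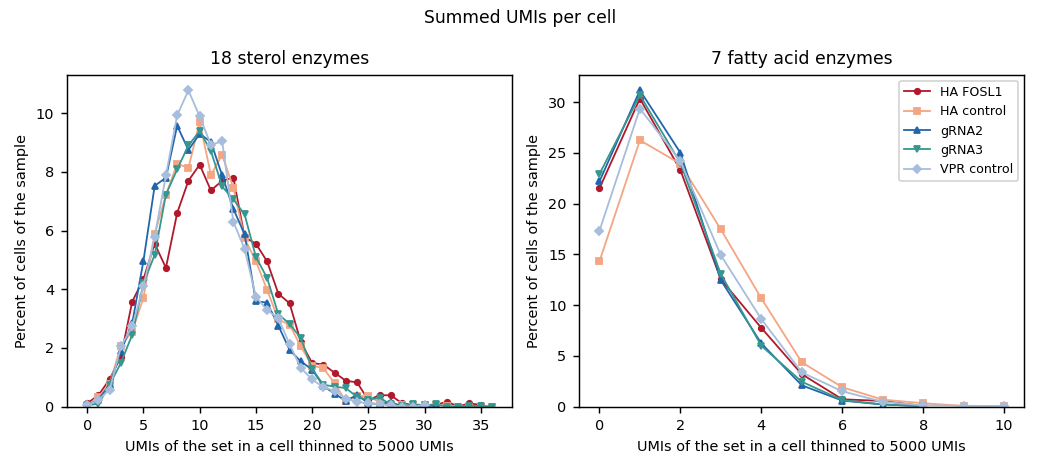
Percent of the cells of each sample (vertical axis, from 0) by the number of UMIs of the sterol enzymes (left) or fatty acid enzymes (right) among 5000 UMIs per cell. The sterol curves lie close together, with that of HA FOSL1 the widest (variance 2.33 times the mean, against 1.65 to 1.97 times in the other samples). In the FOSL1 samples 21.5% to 22.9% of cells have no fatty acid enzyme UMI, against 14.3% and 17.3% in the HA and VPR controls.

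The sterol sum differed between cell cycle phases. In thinned cells of the HA FOSL1 sample it was 2193 CPM in G1, 2483 CPM in S and 2356 CPM in G2/M, and in the HA control 2057, 2255 and 2331 CPM. With gRNA2 it was 1935, 2233 and 2116 CPM, with gRNA3 2108, 2410 and 2214 CPM, and in the VPR control 1962, 2126 and 2200 CPM. G1 cells were lowest in all 5 samples, and S was the highest phase in the 3 FOSL1 samples and G2/M in the controls. Fatty acid sums were lower in FOSL1 samples in every phase, such as 341 CPM in HA FOSL1 against 441 CPM in the HA control in G1, and 310 CPM and 317 CPM with gRNA2 and gRNA3 against 377 CPM in the VPR control. Restricted to G1 cells, SREBF1 was called at -0.54 (edgeR adjusted p = 0.046) and SCD at -0.59 (edgeR adjusted p = 0.032).

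Cells were also divided by a FOSL1 UMI after thinning. In HA FOSL1 the SCD level was 118 CPM with a FOSL1 UMI (102 to 135, 362 cells) against 119 CPM without (111 to 127), with gRNA2 103 CPM (93.2 to 113) against 101 CPM (94.7 to 108), and with gRNA3 102 CPM (94.4 to 110) against 110 CPM (105 to 116). In the HA control it was 137 CPM in 105 cells with a FOSL1 UMI (107 to 173) against 180 CPM in the rest (174 to 187), and in the VPR control 93.6 CPM in 94 cells (68.0 to 126) against 145 CPM (138 to 152). The sterol sum went both ways, at 2442 CPM with a FOSL1 UMI against 2219 CPM without in the HA control, and at 2023 CPM against 2109 CPM in the VPR control. INSIG1 did too, at 36.2 CPM against 45.1 CPM in the HA control and 46.8 CPM against 36.5 CPM in the VPR control, and the intervals of INSIG1, SREBF1 and FASN overlapped in both controls. Empty droplets held FOSL1 at 63.4 CPM, so a FOSL1 UMI in a control cell may be free RNA and is not read as expression. Before thinning, cells with a FOSL1 UMI were deeper (median UMIs 19165 against 15331 within the HA control, and 17699 against 15785 within the VPR control); the parts of depth and free RNA in these values were not tested.

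The starts of the genes show what these members share outside the counts. The 250 bases before the start are given for SREBF1, SCD and INSIG1, which lay below their control in all arms, and for NSDHL. Among the sterol enzymes NSDHL had the largest mean log2 ratio over the 3 arms. The windows are from RefSeq, build GRCh38.p14, 5′ to 3′ along the gene. Capitals mark every match to CCAAT, the letters bound by NF-Y, on either strand (ATTGG on the other), to TCACNCCAC, an SREBP site, or to TGANTCA, the AP-1 site; only CCAAT was matched in these windows, with overlapping matches run together.
SREBF1, chr17:17836987-17837236, minus strand: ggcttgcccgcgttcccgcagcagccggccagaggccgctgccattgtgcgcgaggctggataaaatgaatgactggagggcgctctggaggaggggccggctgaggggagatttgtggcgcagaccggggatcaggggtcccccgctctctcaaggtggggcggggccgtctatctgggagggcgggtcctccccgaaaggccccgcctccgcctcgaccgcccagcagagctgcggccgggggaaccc
SCD, chr10:100346983-100347232, plus strand: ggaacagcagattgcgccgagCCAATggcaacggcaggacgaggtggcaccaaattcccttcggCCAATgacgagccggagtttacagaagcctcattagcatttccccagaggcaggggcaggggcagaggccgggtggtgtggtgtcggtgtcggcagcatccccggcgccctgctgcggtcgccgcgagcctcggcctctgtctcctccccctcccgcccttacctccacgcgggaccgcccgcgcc
INSIG1, chr7:155297628-155297877, plus strand: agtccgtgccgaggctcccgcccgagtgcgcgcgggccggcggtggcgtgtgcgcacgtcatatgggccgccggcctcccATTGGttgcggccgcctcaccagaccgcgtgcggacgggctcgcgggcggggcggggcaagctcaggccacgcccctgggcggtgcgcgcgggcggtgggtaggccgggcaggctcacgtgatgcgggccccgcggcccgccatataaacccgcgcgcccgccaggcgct
NSDHL, chrX:152830813-152831062, plus strand: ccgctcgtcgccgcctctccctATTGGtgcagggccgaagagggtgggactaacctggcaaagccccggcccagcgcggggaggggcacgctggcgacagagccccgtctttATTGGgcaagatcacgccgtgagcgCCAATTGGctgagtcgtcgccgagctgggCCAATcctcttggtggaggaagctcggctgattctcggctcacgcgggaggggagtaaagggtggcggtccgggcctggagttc

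Of the 29 members, 25 have windows in the table, and ACAT2, FASN, FDFT1 and SQLE do not enter. CCAAT was in 19 of the 25, among them 13 of 15 sterol enzymes, 3 of 6 fatty acid enzymes and 3 of 4 regulators, whereas 37.0% of 27305 genes hold it. SCD has a pair of matches and NSDHL has 5, while SREBF1 and ELOVL6 have none in this window. TCACNCCAC was in 1 of 25, SREBF2, beside 1.09% of all genes, and TGANTCA in 0 of 25 beside 8.06% of all genes. A match of letters is a description of the window, and a window without one says nothing about binding elsewhere.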

How the data were processed

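Cells of 5 MDA-MB-468 samples were profiled as 1 pool. The authors made the raw UMI counts with Cell Ranger on hg38, per the submitters' processing notes, with no version and no annotation release named. The file headers name Cell Ranger 4, which was not checked further. The authors' deposited table gives each called cell a hashtag, with the assignment probability as a fraction. The labels' protocols speak of a pool of 6 samples and 16000 loaded cells, and the table lists 21228 called cells. Of these, 5181 multiplets, 402 unassigned cells and 274 blanks were left out; doublets within a sample were not called. Cells with at least 1500 genes and at most 20% mitochondrial UMIs were kept (14642).

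Counts were summed per sample and scaled to CPM. Ratios are log2 of CPM + 1, which understates changes of low genes, with exact conditional binomial intervals; levels have Poisson and shares Clopper-Pearson intervals, at 95% and for counting error only. edgeR 4.0.16 (quasi-likelihood, TMM, filterByExpr, Benjamini-Hochberg over all genes, R 4.3.3) fitted the 5 samples with system as covariate (2 residual degrees of freedom), so a p-value reflects how constructs and guides of a single pool vary, which may be technical. DESeq2 1.42.0 was an alternative. Phases were scored with scanpy 1.11.5. The model and the ratios were tested on simulated data with noise drawn separately for each gene and sample. Such data leave out shifts shared by a whole sample or system.

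The members and lists were chosen with earlier results of these data known. Values in all samples are given for members past 1.5-fold or called, for the extremes of each branch and for 9 members listed by name, and the neighbouring genes named are those past 1.5-fold. Empty droplets were 48909 barcodes with 10 to 100 UMIs. Alternatives changed scaling, pseudocount, cell filters, depth, phase, free RNA, control and samples.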

Additional observations from a re-analysis of the deposited data

Results flagged for a closer look

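edgeR's interaction term, the effect with the guides minus the effect in HA, passed for 3 of 29 members (10.3%) and 6 of 40 neighbouring genes (15.0%), beside 12.2% of 16071 genes, so neither count stands out from all genes. Its only residual degree of freedom comes from gRNA2 against gRNA3, and no spread was measured for HA, which held 1 sample of each kind. Given here are the members and those neighbours that were also 1.5-fold apart in an arm. ELOVL6 had a coefficient of -2.67 (adjusted p = 0.00015), with HA FOSL1 far above its control and both guides near theirs. TM7SF2 had 0.56 (adjusted p = 0.0069) and INSIG1 0.30 (adjusted p = 0.045), both lower in HA FOSL1 relative to its control than with the guides. FADS3 had -0.91 (adjusted p = 0.00011), ACSL4 -0.48 (adjusted p = 0.011) and ME1 -1.06 (adjusted p = 3.4e-05), all higher in HA FOSL1 relative to its control than with the guides. DESeq2 called ELOVL6 (adjusted p = 0.0019), FADS3 (adjusted p = 0.0061) and ME1 (adjusted p = 2.9e-05), and did not call TM7SF2 (adjusted p = 0.32), INSIG1 (adjusted p = 0.94) or ACSL4 (adjusted p = 0.56).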

How the results depend on the processing

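With the control of the other system, the sterol median became 0.10 for HA and 0.011 for gRNA3, the fatty acid median -0.19 for gRNA2 and -0.14 for gRNA3, and the number of members 1.5-fold apart 0 for HA, 1 for gRNA2 and 2 for gRNA3; HMGCS1 and SQLE with gRNA2 then stood at -0.042 and -0.047. Over members at 20 CPM or more the fatty acid median was -0.25 for HA, -0.18 for gRNA2 and -0.12 for gRNA3. The count of members 1.5-fold apart in HA was 0 with a pseudocount of 5 CPM, 2 in thinned cells and 2 in G1 cells. That for gRNA3 was 0 with TMM sizes, 0 with that pseudocount and 0 in G1 cells, where INSIG1 stood at 0.012. For these settings and the other control, no share over all genes was computed, so the 1.5-fold counts are not read further. DESeq2 called 5 members (17.2%) and 1117 genes (4.73%), and by interaction 1 member (3.45%) and 450 genes (1.90%). Without a filter on low counts edgeR called 7 members (24.1%), beside 1984 of 23639 genes (8.39%). In G1 cells it called 2 members (6.90%), beside 414 of 13095 genes (3.16%). Leaving out 1 FOSL1 sample in turn gave 0 to 6 members and 0 to 1804 genes, with the most without HA FOSL1, and TM7SF2 ranged from -0.23 to 0.092. Over the 8 fits the adjusted p of SREBF1 ran from 9.9e-05 to 0.19 and that of SCD from 2.5e-05 to 0.16. The cause of these shifts was not tested. Each group held 1 sample, so no paired analysis of replicates was possible. The system, HA or VPR, is already a covariate of the edgeR fit. The members below 20 CPM (MVK, CYP51A1, STARD4, ACACA, ELOVL6 and FADS2) rest on the fewest UMIs and entered no count of fold changes.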
